A study of Mus musculus with 18 samples.

Results

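The genes described here encode the proteins of the mitochondrial ribosome, as measured in mouse embryos after knockdown of Echs1 or treatment with crotonate or acetate. They were chosen by name: every gene whose symbol starts with Mrpl or Mrps followed by a digit was a member, and 5 symbols that mark pseudogenes were left out. This gave 78 of the 55335 genes in each file, 49 with large subunit names (Mrpl) and 29 with small subunit names (Mrps). The study has 18 RNA-seq libraries, each made from a tube of 5 to 10 embryos, and asks about histone crotonylation in early development. Echs1 is the mitochondrial enoyl-CoA hydratase that acts on crotonyl-CoA. The siRNA experiment has 4 groups of 3 libraries: siEchs1 at L2C (siRNA against Echs1), siCon at L2C (control siRNA), siEchs1 at E2C and siCon at E2C. E2C is the early 2-cell stage, and L2C is a later stage that the labels do not spell out. The treatment experiment has 3 groups of 2 libraries of E2C embryos, from zygotes that received sodium crotonate, sodium acetate or DMSO. The sources used here do not give the strain, dose, route or the age of the mothers, and no label says that replicates came from separate matings. The p-values thus cover the spread among these libraries alone, and that spread may be technical.

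Mitochondrial ribosomes translate the few mRNAs of the mitochondrial genome, all of which encode subunits of the respiratory chain and the ATP synthase. Their rRNAs come from the mitochondrial genome, whereas every protein of both subunits is encoded in the nucleus, made in the cytosol and imported. Compared with the bacterial ribosome from which it descends, the mammalian particle has less rRNA and more protein, and many of its proteins have no bacterial counterpart. The mitochondria of the early embryo come from the oocyte, together with a store of maternal mRNA that is degraded as the embryo's own genome is activated. In humans, variants in several of these genes cause combined respiratory chain deficiency.

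Many genes for mitochondrial ribosomal proteins are controlled through ETS-family sites bound by GABPA (also called NRF-2), through NRF1 sites and through YY1 sites, so the start-site sequences of 4 members are given before the values. They are those with the 2 largest decreases (Mrps33 and Mrps21) and the 2 largest increases (Mrpl12 and Mrps30) between siCon L2C and siCon E2C among called members with exactly 1 start site in the table, so they were picked by that stage change. Each is 300 bases from RefSeq (build GRCm38.p6, which is mm10), 250 before and 50 after the start site, read 5′ to 3′ on the gene's strand. Capitals mark every match on either strand to CCGGAAG (ETS), the NRF1 motif (whose letters include an N), AAGATGGC (YY1), TGACGTCA (cAMP response element), GGGCGG (SP factors) or CCAAT (NF-Y), whose matches could overlap one another.
Mrps33 promoter, chr6:39810887-39811186, minus strand: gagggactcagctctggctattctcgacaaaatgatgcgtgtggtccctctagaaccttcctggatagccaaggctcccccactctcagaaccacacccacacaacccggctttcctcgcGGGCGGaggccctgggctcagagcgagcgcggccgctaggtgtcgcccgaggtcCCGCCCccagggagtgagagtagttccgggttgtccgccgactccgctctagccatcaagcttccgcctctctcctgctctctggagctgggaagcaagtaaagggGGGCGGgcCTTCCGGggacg
Mrps21 promoter, chr3:95871465-95871764, minus strand: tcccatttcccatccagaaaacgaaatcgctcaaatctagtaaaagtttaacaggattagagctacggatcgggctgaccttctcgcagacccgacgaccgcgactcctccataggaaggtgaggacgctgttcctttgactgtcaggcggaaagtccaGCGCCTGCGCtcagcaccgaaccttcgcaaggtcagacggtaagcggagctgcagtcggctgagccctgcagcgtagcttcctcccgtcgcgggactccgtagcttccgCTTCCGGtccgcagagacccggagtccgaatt
Mrpl12 promoter, chr11:120484387-120484686, plus strand: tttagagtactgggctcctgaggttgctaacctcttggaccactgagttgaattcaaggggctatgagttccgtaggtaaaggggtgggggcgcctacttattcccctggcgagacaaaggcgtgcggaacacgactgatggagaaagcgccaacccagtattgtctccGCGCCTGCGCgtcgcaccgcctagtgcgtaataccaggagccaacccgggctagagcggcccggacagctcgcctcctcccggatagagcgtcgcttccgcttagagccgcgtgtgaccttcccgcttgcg
Mrps30 promoter, chr13:118387203-118387502, minus strand: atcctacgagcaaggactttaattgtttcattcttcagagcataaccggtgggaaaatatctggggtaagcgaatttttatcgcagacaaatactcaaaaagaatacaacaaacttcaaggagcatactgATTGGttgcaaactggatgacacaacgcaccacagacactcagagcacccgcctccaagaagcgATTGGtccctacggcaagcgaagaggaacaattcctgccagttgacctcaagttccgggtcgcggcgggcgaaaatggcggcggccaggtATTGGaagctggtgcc

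Mrps33 held 3 SP matches and 1 ETS match, and Mrps21 held 1 NRF1 and 1 ETS match. The window of Mrpl12 held 1 NRF1 match, and that of Mrps30 held 3 CCAAT matches and none of the other motifs. Windows were found for 69 of the 78 members, 75 windows in all. An ETS match stood in 26 of them (34.7%), against 8.86% of the 32851 windows of all genes and 11.6% of the windows of protein-coding genes. NRF1 matches stood in 17.3% of member windows, against 4.60% of all windows and 6.38% of protein-coding ones. YY1 matches stood in 16%, against 2.75% of all windows and 3.05% of protein-coding ones. The shares were nearer to each other for GGGCGG (52% of member windows, 35.7% of all windows, 46.2% of protein-coding ones), CCAAT (40% and 37.4% of all) and the cAMP response element (2.67% and 1.79% of all). Member windows had a median GC content of 58.7%, against 56.3% in protein-coding windows. A match is a string of letters in the window and was not tested for binding. Members that rose and members that fell with the stage in siCon both held them: 3 of 12 windows of risers and 9 of 22 windows of fallers had an ETS match.

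FPKM totals per library lay between 708113 and 1123993, and 12037 to 16703 genes reached 1 FPKM. These files hold FPKM and no counts, so the depth behind a value is unknown here. Echs1 had 0.89, 4.32 and 4.25 FPKM in siEchs1 L2C and 0.71, 5.88 and 3.82 FPKM in siEchs1 E2C, against 24.4 to 39.2 FPKM in the 6 siCon libraries, so the labels matched the target in every library. Replicate 3 of siEchs1 E2C stood apart: its Spearman rho with replicates 1 and 2 of that group was 0.667 and 0.718 across genes, while all other pairs of replicates had 0.847 to 0.937. Titles and file headers disagree on which siEchs1 L2C library is replicate 2 and which is 3, and the titles are followed here. Of 11 oocyte and zygote markers and 9 markers of the 2-cell stage, 0 were at 0 FPKM in any library. Cumulus and granulosa markers summed to 2.29 to 10.7 FPKM in all 18 libraries, with 9 to 12 of the 12 under 1 FPKM.

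**Figure D1:**
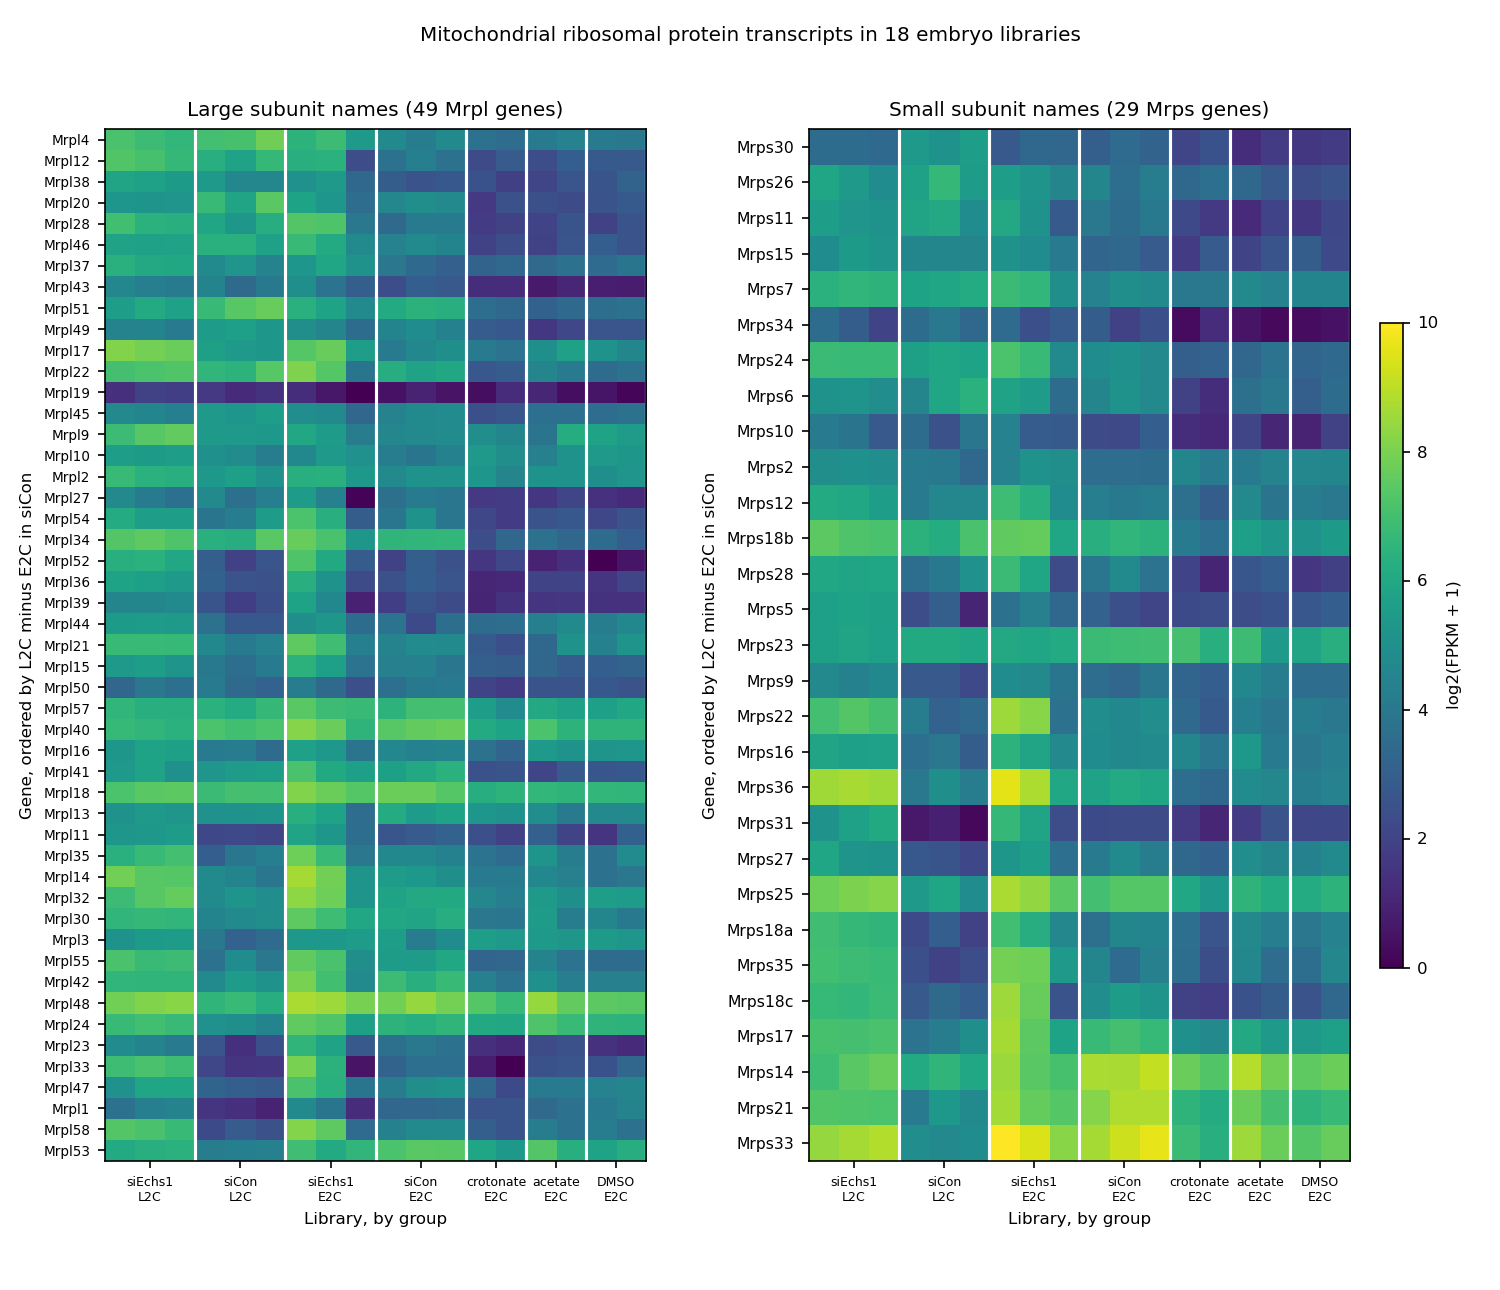
Level of each of the 78 genes in each of the 18 libraries, as log2(FPKM + 1), with large subunit names on the left and small subunit names on the right. Columns are libraries in their 7 groups, and rows are ordered by the change in siCon L2C over siCon E2C, from the largest increase (Mrpl4 and Mrps30) to the largest decrease (Mrpl53 and Mrps33). Most rows are brighter in siEchs1 L2C than in siCon L2C.

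Summed over the 78 genes, mRNA levels were higher in siEchs1 L2C embryos than in siCon L2C embryos. The values of both rRNAs of the mitochondrial ribosome were lower. All values come from oligo-dT priming of poly(A) RNA, so they need not follow the total amount of an RNA. The 78 genes summed to 6912, 7079.9 and 6874 FPKM in the 3 siEchs1 L2C libraries, against 2689.9, 2801 and 3187 FPKM in the 3 siCon L2C libraries. In limma on log2(FPKM + 1), 44 members rose and 4 fell (adjusted p under 0.05 over all 17652 genes tested), where 21.9% of all genes rose and 26.9% fell. The median log2 fold change was 1.45 over the members and -0.08 over all genes. Large subunit names (27 of 49 up, 3 down, median 1.40) and small subunit names (17 of 29 up, 1 down, median 1.66) are given without a test between them. All 3 siEchs1 L2C libraries lay above all 3 siCon L2C libraries for 54 members and below them for 7, while 30.5% and 32.6% of all genes did so. In tubes of embryos, more transcript per cell and more cells that carry it cannot be told apart.

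**Figure D2:**
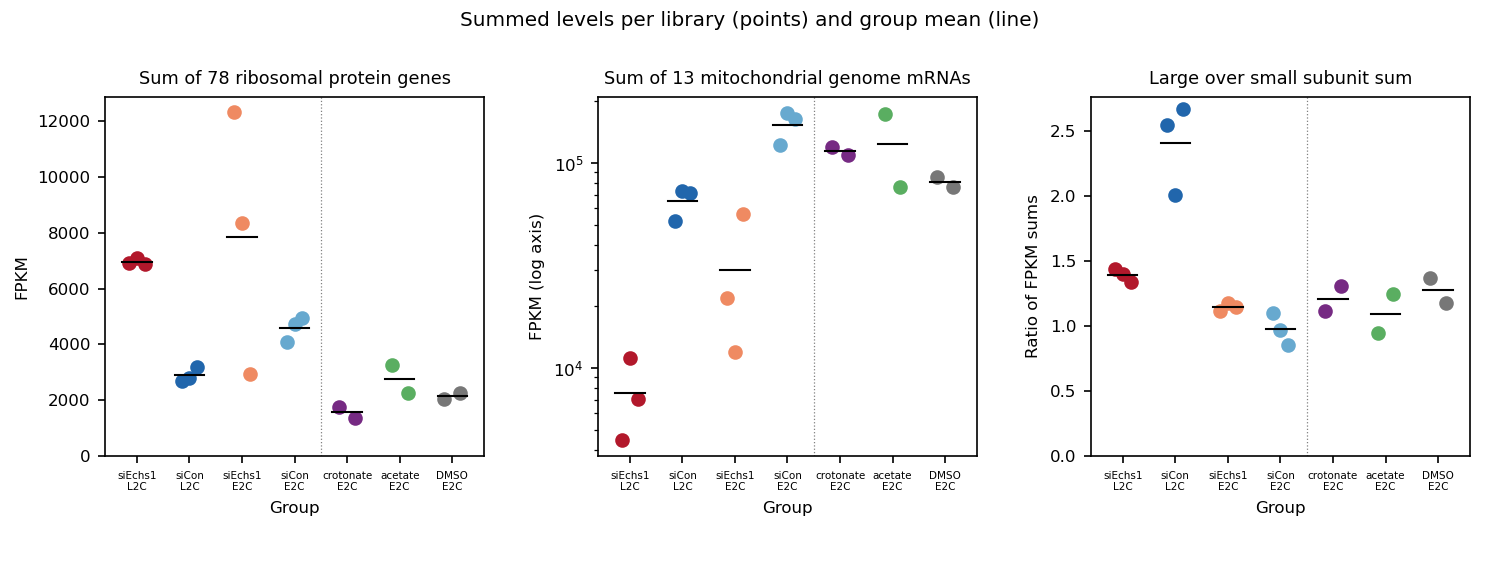
FPKM summed over the 78 ribosomal protein genes (left), over the 13 mRNAs of the mitochondrial genome (middle, log axis), and the ratio of the large to the small subunit sum (right), for each library (points) with the group mean (line). At L2C the siEchs1 libraries have higher ribosomal protein sums (6874 to 7080 FPKM) than siCon (2690 to 3187 FPKM) and lower mitochondrial mRNA sums. Replicate 3 of siEchs1 E2C (2920 FPKM) lies under the other 2 of its group.

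The largest increases at L2C were in genes low in siCon L2C. Mrpl33 (ENSMUSG00000106918.3, chr5:31596935-31664384, plus strand, 7326 nt of annotated exon), a small large-subunit protein related to bacterial bL33, had 117, 138 and 119 FPKM in siEchs1 L2C, against 3.43, 1.91 and 1.98 FPKM in siCon L2C (log2 fold change 5.21 ± 1.31, SE, limma adjusted p = 0.006). Mrps31, a small-subunit protein found only in mitochondria, had 33.3, 51.6 and 67.2 FPKM in siEchs1 L2C, against 0.61, 0.84 and 0.16 FPKM in siCon L2C (log2 fold change 5.04 ± 0.81, SE, limma adjusted p = 0.000386). Mrps31 thus lay under 1 FPKM in each siCon L2C library and above 30 FPKM in each siEchs1 L2C library. Mrps35, another small-subunit protein without a bacterial relative, had 126, 114 and 108 FPKM in siEchs1 L2C, against 4.37, 2.78 and 4.17 FPKM in siCon L2C (log2 fold change 4.63 ± 0.57, SE, limma adjusted p = 0.000104). Mrpl58, a peptidyl-tRNA hydrolase built into the large subunit that can release stalled chains, had 159.6, 138 and 109 FPKM in siEchs1 L2C, against 3.77, 6.26 and 4.53 FPKM in siCon L2C (log2 fold change 4.55 ± 0.87, SE, limma adjusted p = 0.00113). For each of these 4 genes every siEchs1 L2C library was at least an order of magnitude above every siCon L2C library. Reads of Mrpl33 cannot be told from those of Rbks, which overlaps it on the other strand.

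Mrps18a, one of 3 mammalian relatives of bacterial bS18, had 122, 101 and 93.05 FPKM in siEchs1 L2C, against 3.58, 6.91 and 2.84 FPKM in siCon L2C (log2 fold change 4.35 ± 0.52, SE, limma adjusted p = 9.33e-05). Its relative Mrps18c had 102, 97.5 and 112 FPKM in siEchs1 L2C and 6.01, 10.03 and 6.92 FPKM in siCon L2C (log2 fold change 3.62 ± 1.09, SE, limma adjusted p = 0.0157). The third, Mrps18b, had 179, 149 and 137 FPKM in siEchs1 L2C and 85.5, 71.4 and 139 FPKM in siCon L2C, groups that overlap (log2 fold change 0.69 ± 0.43, SE, limma adjusted p = 0.203). Mrps18b and Mrps18c are named here as relatives, after their values were seen. In mammalian structures these relatives occupy different places, with Mrps18a in the large subunit. Mrps36, which carries a ribosomal name but is a component of the 2-oxoglutarate dehydrogenase complex, had 378, 414 and 376 FPKM in siEchs1 L2C, against 14.9, 30.5 and 17.9 FPKM in siCon L2C (log2 fold change 4.20 ± 0.68, SE, limma adjusted p = 0.000414). Mrps36-ps1, a pseudogene symbol, is listed at up to 14.1 FPKM in the siRNA libraries, and reads could be shared with it. Mrps33, a mitochondria-specific small-subunit protein, had 341, 404 and 455 FPKM in siEchs1 L2C, against 28.7, 25.1 and 28.01 FPKM in siCon L2C (log2 fold change 3.82 ± 0.43, SE, limma adjusted p = 7.42e-05). Mrpl52 of the large subunit had 75.4, 83.7 and 60.8 FPKM in siEchs1 L2C, against 7.12, 2.87 and 5.25 FPKM in siCon L2C (log2 fold change 3.66 ± 0.81, SE, limma adjusted p = 0.00287). Apart from Mrps18b, the siEchs1 and siCon libraries did not overlap for any gene of this paragraph, and the calls of the 8 largest increases held in all 20 alternative settings.

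The members that fell in siEchs1 L2C numbered 4. Mrps30, a protein that kept its small-subunit name but sits in the large subunit, had 10.5, 10.7 and 9.76 FPKM in siEchs1 L2C, against 41.5, 33.6 and 46.5 FPKM in siCon L2C (log2 fold change -1.86 ± 0.29, SE, limma adjusted p = 0.00033). Mrpl51 had 47.8, 67.7 and 52.1 FPKM in siEchs1 L2C, against 109, 169.5 and 202 FPKM in siCon L2C (log2 fold change -1.47 ± 0.40, SE, limma adjusted p = 0.00881). Both were lower in every siEchs1 L2C library than in every siCon L2C library. Mrpl20, the relative of bacterial bL20, which is needed for early assembly of the large subunit in bacteria, had 36.98, 35.4 and 36.5 FPKM in siEchs1 L2C, against 108, 56.4 and 173 FPKM in siCon L2C (log2 fold change -1.46 ± 0.52, SE, limma adjusted p = 0.0349). Mrpl49 had 21.2, 21.5 and 15.8 FPKM in siEchs1 L2C, against 44.04, 48.8 and 37.7 FPKM in siCon L2C (log2 fold change -1.12 ± 0.36, SE, limma adjusted p = 0.0222). The call of Mrpl20 ended without replicate 1 or 3 of siCon L2C or any 1 library of siEchs1 L2C (limma adjusted p 0.0735 to 0.141). That of Mrpl49 ended without replicate 1 or 2 of siCon L2C or replicate 3 of siEchs1 L2C (adjusted p in limma 0.0559 to 0.0839), and the count of fallers was 2 without replicate 1 of siCon L2C and 2 without replicate 3 of siEchs1 L2C. Mrps30 overlaps B430218F22Rik on the other strand, and reads of the pair cannot be told apart.

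Counts were also taken by region of the ribosome, without a test between regions. In siEchs1 L2C over siCon L2C, 21.9% of all genes rose and 26.9% fell. The stalk that recruits translation factors is built from Mrpl10, Mrpl11, Mrpl12, Mrpl53 and Mrpl54, of which 3 of 5 rose at L2C and 0 fell (median 1.26). Mrpl11, at the base of the stalk, had 38.4, 39.3 and 44.03 FPKM in siEchs1 L2C, against 3.51, 3.65 and 3.22 FPKM in siCon L2C (log2 fold change 3.22 ± 0.46, SE, limma adjusted p = 0.000207). Mrpl10, which anchors the stalk, had 46.6, 42.2 and 47.3 FPKM in siEchs1 L2C, against 31.9, 27.1 and 18.1 FPKM in siCon L2C (log2 fold change 0.83 ± 0.31, SE, limma adjusted p = 0.0431). The call of Mrpl10 ended in 12 of 20 alternative settings, 8 of them settings that left out 1 library: any of siEchs1 L2C or siCon E2C, or replicate 2 or 3 of siCon L2C (limma adjusted p 0.0542 to 0.146). Mrpl12, the stalk protein that also binds the mitochondrial RNA polymerase, had 156, 135 and 101 FPKM in siEchs1 L2C and 79.1, 53.3 and 101 FPKM in siCon L2C (log2 fold change 0.77 ± 0.81, SE, limma adjusted p = 0.457). Its siEchs1 L2C libraries were all above those of siCon L2C, but by less than the test needs.

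Around the exit of the polypeptide tunnel, 5 of 7 listed members rose at L2C and 0 fell (median 2.31). Of all genes 21.9% rose and 26.9% fell. Mrpl24 had 106, 125 and 108 FPKM in siEchs1 L2C, against 32.4, 30.6 and 21.9 FPKM in siCon L2C (log2 fold change 1.97 ± 0.42, SE, limma adjusted p = 0.00226). Mrpl44, a protein with an RNase III fold whose human gene is mutated in infantile cardiomyopathy, had 42.9, 43.4 and 41.6 FPKM in siEchs1 L2C, against 12.8, 5.79 and 5.55 FPKM in siCon L2C (log2 fold change 2.36 ± 0.52, SE, limma adjusted p = 0.00263). Mrpl45, which ties the tunnel exit to the inner membrane, had 24.8, 23.2 and 19.2 FPKM in siEchs1 L2C, against 41.2, 37.03 and 46.8 FPKM in siCon L2C (log2 fold change -0.87 ± 0.39, SE, limma adjusted p = 0.085). It did not pass the test, although all its siEchs1 L2C libraries were below those of siCon L2C. In the central protuberance, 2 of 7 members rose and 0 fell (median 0.41). The share that rose was near the 21.9% of all genes, so these rises are no result about the region. Mrpl37 had 80.02, 64.7 and 62.3 FPKM in siEchs1 L2C, against 25.6, 36.3 and 21.1 FPKM in siCon L2C (log2 fold change 1.31 ± 0.34, SE, limma adjusted p = 0.00709). Mrpl3, the relative of uL3 near the peptidyl transferase centre, had 34.4, 42.4 and 43.98 FPKM in siEchs1 L2C, against 14.97, 7.80 and 10.2 FPKM in siCon L2C (log2 fold change 1.82 ± 0.36, SE, limma adjusted p = 0.00143). Mrpl41, whose human protein binds BCL2, had 40.8, 53.04 and 31.1 FPKM in siEchs1 L2C and 35.9, 44.4 and 47.9 FPKM in siCon L2C, groups that overlap (log2 fold change -0.06 ± 0.39, SE, limma adjusted p = 0.911).

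Among small-subunit proteins, Mrps12, which lines the decoding centre, had 68.2, 60.6 and 46.4 FPKM in siEchs1 L2C, against 16.4, 23.9 and 23.7 FPKM in siCon L2C (log2 fold change 1.41 ± 0.44, SE, limma adjusted p = 0.0185). The Mrps12 call was lost without replicate 1 of siCon L2C or replicate 1 or 2 of siEchs1 L2C (limma adjusted p 0.0522 to 0.0668). Mrps16, a human disease gene of mitochondrial translation, had 55.7, 48.9 and 51.6 FPKM in siEchs1 L2C, against 11.7, 14.6 and 6.74 FPKM in siCon L2C (log2 fold change 2.20 ± 0.42, SE, limma adjusted p = 0.00107). Mrps22, also a human disease gene, had 126, 158 and 133 FPKM in siEchs1 L2C, against 17.2, 7.79 and 9.73 FPKM in siCon L2C (log2 fold change 3.54 ± 0.93, SE, limma adjusted p = 0.00751). For both, every siEchs1 L2C library was above every siCon L2C library. Mrps2 had 29.7, 31.8 and 29.3 FPKM in siEchs1 L2C, against 16.7, 15.3 and 9.43 FPKM in siCon L2C (log2 fold change 1.11 ± 0.30, SE, limma adjusted p = 0.00931). Mrps7 had 83.3, 93.7 and 88.2 FPKM in siEchs1 L2C and 54.8, 57.6 and 70.9 FPKM in siCon L2C (log2 fold change 0.53 ± 0.42, SE, limma adjusted p = 0.316), and Mrps34 had 10.7, 6.76 and 3.10 FPKM in siEchs1 L2C and 10.5, 15.2 and 9.35 FPKM in siCon L2C (log2 fold change -0.79 ± 0.44, SE, limma adjusted p = 0.155), neither past the threshold. Of 15 members that are human genes of combined respiratory chain deficiency, 9 rose and 0 fell (median 1.65). Of members with a bacterial counterpart, 19 of 29 in the large subunit rose and 1 fell (median 1.82). In the small subunit, 10 of 17 of them rose and 0 fell (median 1.12). Beside these lists, 21.9% of all genes rose and 26.9% fell.

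**Figure D3:**
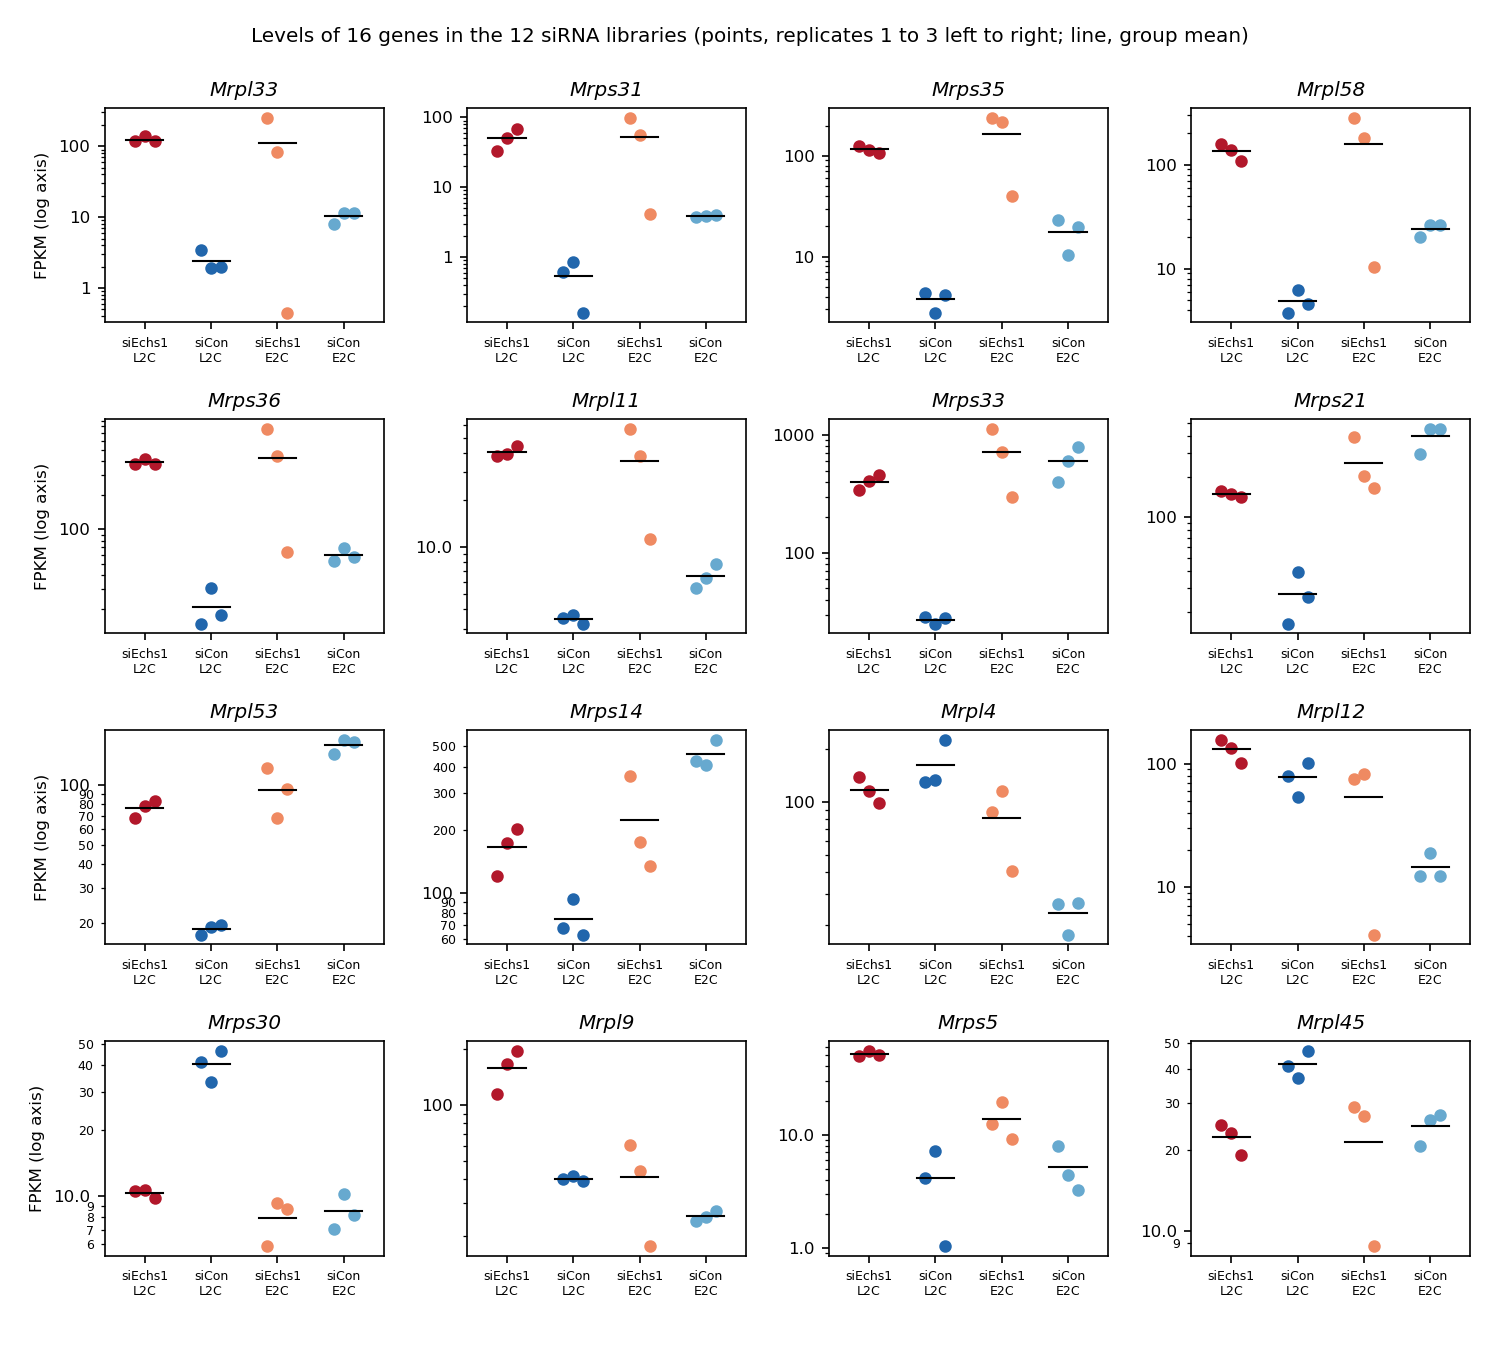
FPKM of 16 genes in the 12 siRNA libraries on log axes, with points for libraries and a line for the group mean. Mrpl33, Mrps31, Mrps35, Mrpl58, Mrps36 and Mrpl11 are low in siCon at both stages and lowest at L2C, Mrps33, Mrps21, Mrpl53 and Mrps14 are high in siCon E2C and low in siCon L2C, and Mrpl4, Mrpl12 and Mrps30 run the other way in siCon. In siEchs1 E2C, replicate 3 is the lowest point of most panels.

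Other transcript groups moved with the members in these libraries, and their part in the result was not tested. The 11 oocyte and zygote markers summed to 17380 to 21710 FPKM in siEchs1 L2C, against 3857 to 4527 FPKM in siCon L2C, and 9 rose and 0 fell (median 4.20). Zp3, which encodes a protein of the egg coat, had 4409, 3188 and 2631 FPKM in siEchs1 L2C, against 44.8, 70.8 and 93.7 FPKM in siCon L2C. The 9 markers of the 2-cell stage summed to 249 to 383 FPKM in siEchs1 L2C, against 1193 to 1716 FPKM in siCon L2C. Blood markers summed to 3.43 to 18.7 FPKM in siEchs1 L2C and 90.5 to 125 FPKM in siCon L2C, with 5 to 6 and 5 of the 7 under 1 FPKM. Oviduct epithelium markers, 2 of which are keratins that embryos also make, summed to 5.46 to 36.98 FPKM in siEchs1 L2C and 128 to 188 FPKM in siCon L2C. Sperm and testis markers summed to 53.7 to 75.3 FPKM in siEchs1 L2C and 39.7 to 88.6 FPKM in siCon L2C. The mRNAs of the mitochondrial genome went the other way from the ribosomal proteins: they summed to 4471, 11162 and 7059.5 FPKM in siEchs1 L2C, against 52381, 72841 and 71521 FPKM in siCon L2C, and all 13 fell (median -3.08). The rRNAs of the mitochondrial ribosome fell too, as read by oligo-dT priming. The transcript mt-Rnr1, of the small subunit, had 269.7, 669 and 507 FPKM in siEchs1 L2C, against 1117, 2188 and 1855 FPKM in siCon L2C (log2 fold change -1.88, limma adjusted p = 0.0315). The transcript mt-Rnr2, of the large subunit, had 259, 934 and 712 FPKM in siEchs1 L2C, against 2658, 2535 and 2253 FPKM in siCon L2C (log2 fold change -2.15, limma adjusted p = 0.0274). With the values rescaled without mitochondrial and ribosomal RNA, 44 members were higher and 4 lower at L2C, with a median of 1.46. Over all 17740 genes tested in that setting, 4028 were higher and 4651 lower. Of the 44, 43 were also called without rescaling, and Mrpl10 was lost (limma adjusted p = 0.0615).

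At E2C the same comparison gave fewer calls. The members summed to 12316, 8335 and 2920.3 FPKM in replicates 1 to 3 of siEchs1 E2C, against 4066, 4732 and 4934 FPKM in siCon E2C, so replicates 1 and 2 of siEchs1 E2C were above every siCon E2C library and replicate 3 was below them. Of the 78 members, 15 rose and 2 fell, where 11.0% of all genes rose and 9.31% fell. The median was 0.90 over the members and 0.15 over all genes, with 7 of 49 large subunit names up and 0 down, and 8 of 29 small subunit names up and 2 down. Oocyte and zygote markers summed to 11960 to 23550 FPKM in siEchs1 E2C, against 22330 to 24710 FPKM in siCon E2C, and markers of the 2-cell stage to 587 to 921 FPKM in siEchs1 E2C, against 1728 to 1897 FPKM in siCon E2C. Of the 11 oocyte and zygote markers, 6 rose and 2 fell in siEchs1 E2C (median 1.75), and of the 9 markers of the 2-cell stage 0 rose and 6 fell (median -1.68). Replicate 3 of siEchs1 E2C had the lowest oocyte and zygote sum, while all siEchs1 E2C libraries were below all siCon E2C libraries in the sum of 2-cell markers, and the part of these transcripts in the result was not tested. Of single markers, the egg coat gene Zp3 had 3071, 3622 and 35.9 FPKM in replicates 1 to 3 of siEchs1 E2C, against 36.3, 36.7 and 27.99 FPKM in siCon E2C. Mitochondrial genome mRNAs summed to 21957, 12003 and 56312 FPKM in siEchs1 E2C, against 122150, 174780 and 162920 FPKM in siCon E2C, where all siEchs1 E2C libraries were the lower ones. Without replicate 3 of siEchs1 E2C, 53 members rose and 2 fell. Shares of all genes for fits without 1 library are not given here. The count of rises was 5 without replicate 2 of siEchs1 E2C, and 9, 6 and 8 without replicates 1, 2 and 3 of siCon E2C. The count of falls was 0 without any 1 of these 4 libraries and 1 without any 1 L2C library. Rescaled without mitochondrial and ribosomal RNA, 30 members rose and 0 fell, where 2708 of 17740 genes rose and 1198 fell. In the main fit 1934 of 17652 genes rose and 1644 fell.

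Mrps35 and Mrps31, among the largest increases at L2C, rose at E2C as well. Mrps35 had 239, 218 and 40.01 FPKM in siEchs1 E2C, against 23.4, 10.3 and 19.6 FPKM in siCon E2C (log2 fold change 2.85 ± 0.57, SE, limma adjusted p = 0.00506). Mrps31 had 98.9, 56.2 and 4.19 FPKM in siEchs1 E2C, against 3.78, 3.90 and 4.04 FPKM in siCon E2C (log2 fold change 2.66 ± 0.81, SE, limma adjusted p = 0.0356). In both, replicate 3 was the lowest siEchs1 library but still above all of siCon E2C. Mrpl17, at the tunnel exit, had 165, 203 and 45.8 FPKM in siEchs1 E2C, against 16.1, 24.4 and 30.3 FPKM in siCon E2C (log2 fold change 2.29 ± 0.48, SE, limma adjusted p = 0.00641). Mrpl11 had 57, 38.3 and 11.3 FPKM in siEchs1 E2C, against 5.45, 6.33 and 7.76 FPKM in siCon E2C (log2 fold change 2.03 ± 0.46, SE, limma adjusted p = 0.00996). Mrpl37 had 37.1, 57.2 and 34 FPKM in siEchs1 E2C, against 14.7, 9.65 and 7.49 FPKM in siCon E2C (log2 fold change 1.93 ± 0.34, SE, limma adjusted p = 0.0028). In Mrpl37, unlike the others so far, replicate 3 lay close to replicate 1 of siEchs1 E2C. Mrpl38 of the central protuberance had 32.8, 41.4 and 9.28 FPKM in siEchs1 E2C, against 6.68, 4.84 and 5.67 FPKM in siCon E2C (log2 fold change 1.87 ± 0.47, SE, limma adjusted p = 0.0152). Mrps12 had 116, 77.7 and 27.8 FPKM in siEchs1 E2C, against 18.5, 15.6 and 17.1 FPKM in siCon E2C (log2 fold change 1.83 ± 0.44, SE, limma adjusted p = 0.0129). Mrps18a had 123, 73.5 and 23.8 FPKM in siEchs1 E2C, against 11.99, 23.2 and 21.8 FPKM in siCon E2C (log2 fold change 1.67 ± 0.52, SE, limma adjusted p = 0.0396). For each of these 8 genes the groups did not overlap. With the E2C libraries alone, the calls of Mrps31, Mrpl11, Mrpl38, Mrps12 and Mrps18a ended (limma adjusted p 0.0611 to 0.119). Those of Mrps31 and Mrps18a also ended with no filter on low values (limma adjusted p 0.1 and 0.103). Quantile normalization ended that of Mrps18a too (limma adjusted p 0.0601). The calls of Mrps35, Mrpl17 and Mrpl37 held in all 20 alternative settings.

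The members that fell at E2C are both proteins of the small subunit and were abundant in siCon E2C. Mrps14 had 362, 175 and 134 FPKM in siEchs1 E2C, against 428, 408 and 538 FPKM in siCon E2C (log2 fold change -1.15 ± 0.38, SE, limma adjusted p = 0.0483). Mrps23 had 63.98, 60.2 and 68.9 FPKM in siEchs1 E2C, against 112, 117 and 122 FPKM in siCon E2C (log2 fold change -0.85 ± 0.25, SE, limma adjusted p = 0.029). Both were lower in every siEchs1 E2C library than in every siCon E2C library. Both calls ended with values rescaled without mitochondrial and ribosomal RNA (limma adjusted p 0.0843 for Mrps14 and 0.153 for Mrps23) and with the E2C libraries alone (limma adjusted p 0.115 for Mrps14 and 0.102 for Mrps23), and that of Mrps14 also under quantile normalization (limma adjusted p 0.0553) and with no filter on low values (limma adjusted p 0.1075). Several single calls at E2C ended when 1 library was left out. Those of Mrps31, Mrps18a and Mrps7 (log2 fold change 1.42 ± 0.42, SE, limma adjusted p = 0.0339) ended without replicate 1 or 2 of siEchs1 E2C or any 1 siCon E2C library (limma adjusted p 0.0889 to 0.133 for Mrps31, 0.0505 to 0.14 for Mrps18a with the L2C libraries named below, and 0.067 to 0.128 for Mrps7). The call of Mrps18a also ended without replicate 1 of siCon L2C or any 1 library of siEchs1 L2C. That of Mrps7 also ended with the E2C libraries alone, no filter or quantile normalization (limma adjusted p 0.12, 0.0828 and 0.0604). Those of Mrps14 and Mrps23 ended without replicate 2 of siEchs1 E2C or any 1 library of siCon E2C, and that of Mrps14 also without replicate 3 of siEchs1 E2C or any 1 L2C library (limma adjusted p 0.0521 to 0.158 for Mrps14 and 0.075 to 0.105 for Mrps23). Replicate 2 of siEchs1 E2C was needed for the calls of Mrpl38, Mrps12 and Mrps2, and calls were also lost without replicate 2 of siCon E2C (Mrpl38 and Mrps12) or its replicate 3 (Mrpl38); the values for Mrps2 were log2 fold change 1.28 ± 0.30, SE, limma adjusted p = 0.0122. Left out in this way, the 3 genes had limma adjusted p of 0.0503 to 0.0679.

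Between siCon L2C and siCon E2C the members split into genes that rose and genes that fell. Of the 78, 15 rose and 19 fell in siCon L2C, where 35.8% of all genes rose and 14.4% fell. The median was -0.34 over the members and 0.51 over all genes. All siCon L2C libraries lay above all siCon E2C libraries for 23 members and below them for 36, where 42.8% and 21.0% of all genes did so. Small subunit names (6 of 29 up, 11 down, median -0.88) and large subunit names (9 of 49 up, 8 down, median -0.26) were likewise not tested against each other. Large subunit names summed to 2.55, 2.01 and 2.67 times the sum of small subunit names in siCon L2C, against 1.10, 0.968 and 0.857 times in siCon E2C. In siEchs1 L2C this ratio was 1.44, 1.40 and 1.34, and in siEchs1 E2C it was 1.11, 1.18 and 1.15. The split depended on the scaling. Quantile normalization, which moves the median of all genes to -0.01, gave 6 rises and 33 falls. Of 17652 genes, 4192 rose and 4243 fell under it. Values rescaled without mitochondrial and ribosomal RNA, with an all-gene median of 0.76, gave 21 rises and 14 falls. Of 17740 genes, 7323 rose and 1892 fell in that setting. The count of rises was 9 without replicate 1 of siCon E2C, 8 without its replicate 3, and 9 without replicate 1 or replicate 3 of siCon L2C, and the count of falls was 32 without replicate 3 of siEchs1 E2C. Shares of all genes in those fits are not given here. Oocyte and zygote markers summed to 3857 to 4527 FPKM in siCon L2C, against 22330 to 24710 FPKM in siCon E2C, where 0 of the 11 rose and 5 fell (median -0.705), and their part in the result was not tested.

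The largest decreases among called members included the 3 most abundant members of siCon E2C, Mrps33, Mrps14 and Mrps21. Mrps33, the highest of all members over the siRNA libraries, had 28.7, 25.1 and 28.01 FPKM in siCon L2C, against 402, 606 and 792 FPKM in siCon E2C (log2 fold change -4.36 ± 0.43, SE, limma adjusted p = 1.24e-05). Mrps21, a relative of bacterial bS21, had 16.3, 39.6 and 25.7 FPKM in siCon L2C, against 293, 447 and 452 FPKM in siCon E2C (log2 fold change -3.88 ± 0.39, SE, limma adjusted p = 1.44e-05). Mrpl53 of the stalk region had 17.4, 19.2 and 19.5 FPKM in siCon L2C, against 145, 171 and 167 FPKM in siCon E2C (log2 fold change -3.04 ± 0.28, SE, limma adjusted p = 9.22e-06). In all of them every siCon L2C library lay under every siCon E2C library. Mrps14 had 67.5, 92.96 and 62.9 FPKM in siCon L2C, against 428, 408 and 538 FPKM in siCon E2C (log2 fold change -2.61 ± 0.38, SE, limma adjusted p = 0.000138). Mrps17 had 13.1, 17.9 and 30.9 FPKM in siCon L2C, against 108, 132 and 103 FPKM in siCon E2C (log2 fold change -2.49 ± 0.56, SE, limma adjusted p = 0.00284). Mrpl1 had 1.84, 1.54 and 0.92 FPKM in siCon L2C, against 8.97, 8.84 and 9.98 FPKM in siCon E2C (log2 fold change -2.09 ± 0.66, SE, limma adjusted p = 0.0192). For none of these 3 genes did the stages overlap, and Mrpl1 was low in both. Next in size among called members whose stages did not overlap were Mrps35 (log2 fold change -1.92 ± 0.57, SE, limma adjusted p = 0.0136) and Mrps18a (log2 fold change -1.90 ± 0.52, SE, limma adjusted p = 0.00904), whose levels are given above. The calls of Mrpl1 (without replicate 3 of siCon E2C or of siCon L2C, limma adjusted p 0.0534 to 0.063) and Mrps35 (without replicate 1 of siCon E2C, 0.0536) each ended without a single library. Mrpl3, named above, fell with the stage as well (log2 fold change -1.35 ± 0.36, SE, limma adjusted p = 0.00796). So did Mrpl24 (limma adjusted p = 0.00765) and Mrps16 (limma adjusted p = 0.0251). The Mrps16 call ended without any 1 library of siCon E2C or replicate 3 of siCon L2C (limma adjusted p 0.0522 to 0.101). Mrps33, Mrps14, Mrps21, Mrps25 and Mrps17, picked here after their values were seen, together made up 166, 233 and 175 of the 758, 931 and 868 FPKM of small subunit names in siCon L2C, against 1359, 1756 and 2046 of 1939, 2404 and 2657 FPKM in siCon E2C. The other 24 small subunit names summed to 592 to 698 FPKM in siCon L2C and 579 to 648 FPKM in siCon E2C.

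The largest increase in siCon L2C was that of Mrpl4. This relative of bacterial uL4, which lines the exit tunnel, had 129.7, 134 and 227 FPKM in siCon L2C, against 26.4, 17.6 and 26.6 FPKM in siCon E2C (log2 fold change 2.72 ± 0.40, SE, limma adjusted p = 0.000153). Mrpl12 had 79.1, 53.3 and 101 FPKM in siCon L2C, against 12.2, 19.1 and 12.4 FPKM in siCon E2C (log2 fold change 2.32 ± 0.81, SE, limma adjusted p = 0.0306). Mrpl38 had 41.2, 23.5 and 23.4 FPKM in siCon L2C, against 6.68, 4.84 and 5.67 FPKM in siCon E2C (log2 fold change 2.13 ± 0.47, SE, limma adjusted p = 0.00231). For these 3 genes the stages did not overlap. Mrps30 had 41.5, 33.6 and 46.5 FPKM in siCon L2C, against 7.06, 10.2 and 8.14 FPKM in siCon E2C (log2 fold change 2.13 ± 0.29, SE, limma adjusted p = 9.17e-05). Mrpl20 had 108, 56.4 and 173 FPKM in siCon L2C, against 24.04, 30.1 and 25.4 FPKM in siCon E2C (log2 fold change 1.91 ± 0.52, SE, limma adjusted p = 0.00914). Mrps26 had 51.3, 99.3 and 43.5 FPKM in siCon L2C, against 22.9, 11.2 and 18.1 FPKM in siCon E2C (log2 fold change 1.80 ± 0.43, SE, limma adjusted p = 0.00398). The stages did not overlap for these either. Mrpl28 (log2 fold change 1.88 ± 0.70, SE, limma adjusted p = 0.0414) and Mrps11 (log2 fold change 1.73 ± 0.64, SE, limma adjusted p = 0.0376) completed the 8 largest increases. Mrpl46, named after its values were seen, and Mrps11, which overlap head to head on chromosome 7, both rose (Mrpl46, log2 fold change 1.55 ± 0.43, SE, limma adjusted p = 0.00944), and reads of the overlap cannot be told apart. The call of Mrpl12 ended without replicate 1 or 3 of siCon E2C or of siCon L2C (limma adjusted p 0.073 to 0.0946). Those of Mrpl28 (any 1 siCon library or any 1 of siEchs1 L2C) and Mrps11 (any 1 of siCon E2C, or replicate 1 or 2 of siCon L2C) ended in the same way (limma adjusted p 0.0509 to 0.123 for Mrpl28 and 0.0685 to 0.118 for Mrps11). Mrpl37, named at E2C, rose with the stage too (log2 fold change 1.32 ± 0.34, SE, limma adjusted p = 0.00642), as did Mrps7 (log2 fold change 1.23 ± 0.42, SE, limma adjusted p = 0.0287) and Mrps34 (log2 fold change 1.19 ± 0.44, SE, limma adjusted p = 0.0393). Mrps7 lost its call without replicate 1 or 3 of siCon E2C or any 1 siCon L2C library (limma adjusted p 0.0529 to 0.0931). Mrps34 lost its call without replicate 2 or 3 of siCon E2C, any 1 siCon L2C library or replicate 2 of siEchs1 L2C (limma adjusted p 0.0519 to 0.146). Under quantile normalization 9 of the 15 rises were no longer called: Mrpl12, Mrpl28, Mrps11, Mrpl37, Mrps7 and Mrps34 (limma adjusted p 0.0627 to 0.351), and also Mrpl43, Mrpl51 and Mrps15, named here for that loss.

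Fewer members were called between the same stages in siEchs1 embryos. Of the 78 members, 2 rose and 0 fell in siEchs1 L2C relative to siEchs1 E2C by limma, where 11.8% of all genes rose and 2.73% fell. At an unadjusted p under 0.05, 6 members were higher and 2 lower, and 28.0% of all genes passed in either direction. Mrpl9 had 114, 166 and 195 FPKM in siEchs1 L2C, against 60.95, 44.3 and 17.7 FPKM in siEchs1 E2C (log2 fold change 2.06 ± 0.40, SE, limma adjusted p = 0.00558). Mrps5, a relative of bacterial uS5, had 49.2, 55.03 and 50.4 FPKM in siEchs1 L2C, against 12.5, 19.5 and 9.15 FPKM in siEchs1 E2C (log2 fold change 1.89 ± 0.48, SE, limma adjusted p = 0.0211). Both were above every siEchs1 E2C library in every siEchs1 L2C library. The call of Mrps5 ended without any 1 library of siEchs1 L2C (limma adjusted p 0.0554 to 0.0682), leaving 1 rise each time. Without replicate 3 of siEchs1 E2C, 2 members rose and 7 fell, and the shares of all genes in that fit are not given here.

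A direct test of whether the stage change differed between the siRNAs, which is the same contrast as the siRNA effect at L2C minus that at E2C, called 11 members. The difference was positive for 9 and negative for 2, where 5.65% of all genes were called positive and 11.6% negative. Its median was 0.72 over the members and -0.21 over all genes, with 7 of the 9 positive calls among small subunit names. Mrps33 was at 341, 404 and 455 FPKM in siEchs1 L2C and 1130, 715 and 299.6 FPKM in siEchs1 E2C, while siCon gave the 2 distant levels above (difference 3.71 ± 0.61, SE, limma adjusted p = 0.00431). Mrps21 was at 156, 149 and 142 FPKM in siEchs1 L2C and 394, 200.2 and 166 FPKM in siEchs1 E2C (difference 3.22 ± 0.56, limma adjusted p = 0.00542). For both genes every siEchs1 L2C library was above every siCon L2C library. Mrpl53 was at 68.4, 78.8 and 83.7 FPKM in siEchs1 L2C and 122, 68 and 95.5 FPKM in siEchs1 E2C (difference 2.77 ± 0.40, limma adjusted p = 0.00266). Mrps14 was at 119.5, 173 and 202 FPKM in siEchs1 L2C and 362, 175 and 134 FPKM in siEchs1 E2C (difference 2.27 ± 0.53, limma adjusted p = 0.016). These 4 genes fell with the stage in siCon, and for none of them did the siEchs1 stage change pass the test. Of the 2 negative calls, Mrps30 was at 10.5, 10.7 and 9.76 FPKM in siEchs1 L2C and 5.90, 9.24 and 8.73 FPKM in siEchs1 E2C (difference -1.77 ± 0.41, limma adjusted p = 0.0151). Mrpl4 was at 138, 115 and 98.7 FPKM in siEchs1 L2C and 88.2, 116 and 40.6 FPKM in siEchs1 E2C (difference -2.09 ± 0.56, limma adjusted p = 0.0258).

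**Figure D4:**
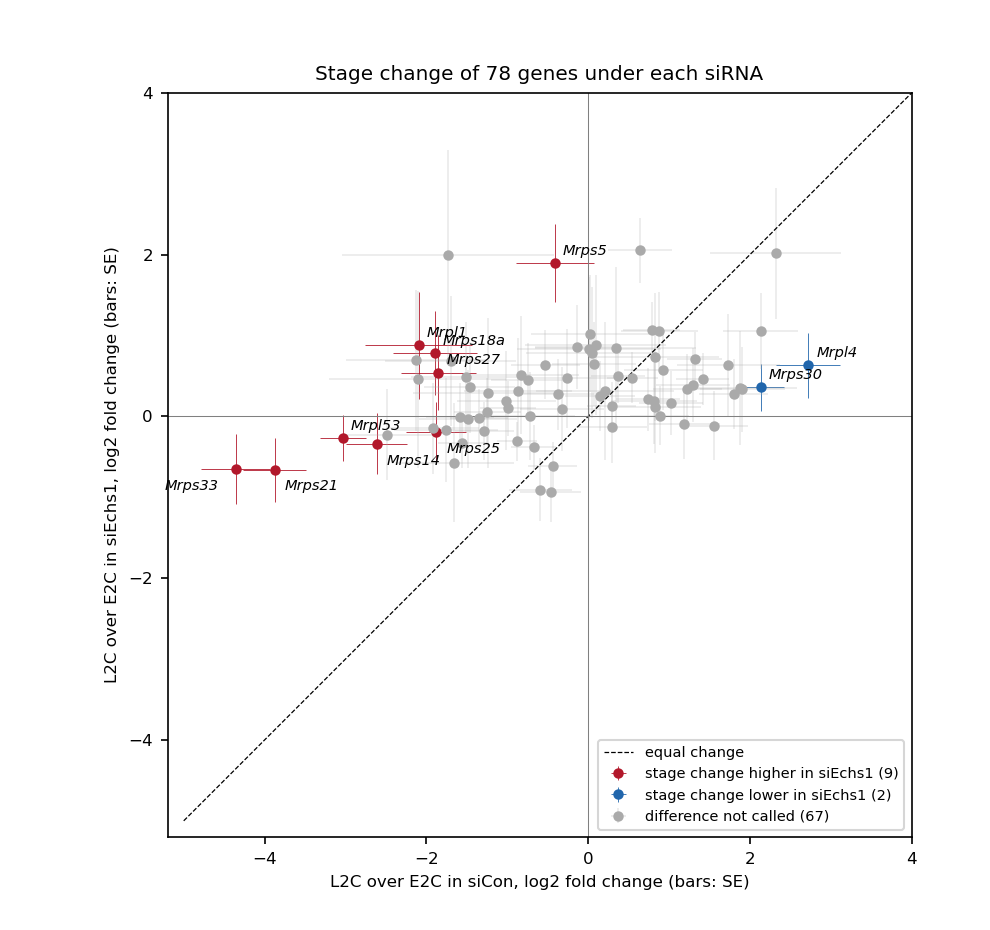
Change in L2C over E2C of each of the 78 genes in siEchs1 (vertical axis) and in siCon (horizontal axis), as log2 fold changes with standard errors. The 9 red genes, such as Mrps33 (siEchs1 -0.65, siCon -4.36), lie above the dashed line of equal change, and the 2 blue genes, Mrpl4 and Mrps30, lie below it. Changes span -4.36 to 2.72 in siCon and -0.93 to 2.06 in siEchs1.

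The siRNA effects and the stage changes share libraries of the same 4 groups, so they are given side by side and not as separate evidence. The remaining positive differences were Mrpl1, Mrps18a, Mrps27, Mrps5 and Mrps25, between 1.68 and 2.98. Mrps25 had 219, 260.1 and 288 FPKM in siEchs1 L2C and 419.9, 336 and 175 FPKM in siEchs1 E2C, against 40.7, 57.3 and 27.8 FPKM in siCon L2C and 129, 163 and 161 FPKM in siCon E2C. Mrps27, a protein with pentatricopeptide repeats, had 58.6, 35.3 and 33.2 FPKM in siEchs1 L2C and 38.1, 47 and 11.7 FPKM in siEchs1 E2C, against 5.78, 5.10 and 3.46 FPKM in siCon L2C and 15.98, 26.7 and 17.4 FPKM in siCon E2C. In both genes siCon L2C had the lowest mean of the 4 groups. These counts moved when single libraries were left out, and shares of all genes in those fits are not given here. The positive count was 21 without replicate 1 of siEchs1 E2C, 4 without replicate 2 or 3 of siCon E2C, replicate 3 of siCon L2C or replicate 1 or 3 of siEchs1 L2C, and 5 without replicate 1 of siCon L2C or replicate 2 of siEchs1 L2C. The negative count was 16 without replicate 3 of siEchs1 E2C, which turned the median to -0.08, and 1 without replicate 2 of siEchs1 E2C, 2 or 3 of siCon E2C, 3 of siCon L2C, or 2 or 3 of siEchs1 L2C. The calls of Mrps33, Mrps21, Mrpl53, Mrps14 and Mrps30 held in all 19 alternative settings. Rescaled without mitochondrial and ribosomal RNA, 7 members were called positive and 3 negative, where 839 and 2459 of 17740 genes were.

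Other genes of the mitochondrial translation machinery were measured in the same libraries. Of 5 measured mitoribosome proteins without an Mrp symbol, 3 rose and 1 fell in siEchs1 L2C (median 1.96). Over all genes 21.9% rose and 26.9% fell. Dap3, a GTP-binding protein of the small subunit, had 156, 170.1 and 193 FPKM in siEchs1 L2C, against 32.7, 44.9 and 18.01 FPKM in siCon L2C (log2 fold change 2.49, limma adjusted p = 0.000695). Gadd45gip1 had 129, 117 and 138 FPKM in siEchs1 L2C, against 21.6, 19.2 and 46.7 FPKM in siCon L2C (log2 fold change 2.20, limma adjusted p = 0.00374), and Chchd1 rose as well (log2 fold change 1.96, limma adjusted p = 0.0417). Ptcd3, a pentatricopeptide protein of the small subunit, fell to 15.7, 17.2 and 15.9 FPKM in siEchs1 L2C, against 24.5, 25.9 and 37.1 FPKM in siCon L2C (log2 fold change -0.78, limma adjusted p = 0.0421). Of 26 assembly factors, 7 rose and 6 fell in siEchs1 L2C (median 0.18), which is near the shares of all genes (21.9% rose and 26.9% fell) and so no result about the list. Mterf4, which recruits an rRNA methyltransferase to the large subunit, had 138, 126 and 101 FPKM in siEchs1 L2C, against 7.05, 4.41 and 3.84 FPKM in siCon L2C (log2 fold change 4.35, limma adjusted p = 0.00069). Tfb1m, the methyltransferase of the small rRNA, had 22.7, 42.9 and 29.8 FPKM in siEchs1 L2C, against 2.81, 3.78 and 3.71 FPKM in siCon L2C (log2 fold change 2.85, limma adjusted p = 0.000207). The GTPase Mtg1 had 55.7, 44.5 and 29.9 FPKM in siEchs1 L2C, against 2.47, 6.10 and 4.40 FPKM in siCon L2C (log2 fold change 3.08, limma adjusted p = 0.000523). For these 3 genes every siEchs1 L2C library was above every siCon L2C library. In the other direction, the pseudouridine synthase family member Trub2 had 6.97, 7.33 and 4.42 FPKM in siEchs1 L2C, against 46.2, 35.4 and 60.3 FPKM in siCon L2C (log2 fold change -2.73, limma adjusted p = 0.000147). Mettl17, which acts on the small subunit, had 6.33, 6.80 and 6.57 FPKM in siEchs1 L2C, against 42.2, 25.1 and 36.6 FPKM in siCon L2C (log2 fold change -2.21, limma adjusted p = 0.000398). The rRNA methyltransferase Mrm1 had 2.96, 0.8 and 0.51 FPKM in siEchs1 L2C, against 11.5, 8.68 and 8.36 FPKM in siCon L2C (log2 fold change -2.24, limma adjusted p = 0.000552). These 3 were lower in every siEchs1 L2C library than in every siCon L2C library.

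Of 16 translation factors, 8 rose and 0 fell in siEchs1 L2C (median 0.81), where 21.9% of all genes rose and 26.9% fell. Tufm, the mitochondrial elongation factor Tu, had 34.1, 23.3 and 19.6 FPKM in siEchs1 L2C, against 6.67, 1.77 and 1.30 FPKM in siCon L2C (log2 fold change 2.83, limma adjusted p = 0.00566). Its exchange factor Tsfm had 54.2, 41.2 and 36.5 FPKM in siEchs1 L2C, against 15.8, 20.6 and 7.95 FPKM in siCon L2C (log2 fold change 1.58, limma adjusted p = 0.0068), and the elongation factor Gfm1 had 39.8, 46.95 and 37.01 FPKM in siEchs1 L2C, against 11.5, 15.1 and 13.4 FPKM in siCon L2C (log2 fold change 1.56, limma adjusted p = 0.00843). At E2C, 6 of the 16 rose and 0 fell (median 0.76), and 7 of the 26 assembly factors rose and 0 fell (median 0.62), where 11.0% of all genes rose and 9.31% fell. With the stage in siCon, 12 of the 26 assembly factors rose and 2 fell (median 0.81). Of all genes 35.8% rose and 14.4% fell, with a median of 0.51. Of the 16 translation factors 5 rose and 1 fell (median 0.51), near all genes and so no result about that list. The ribosomal proteins had the median of -0.34 given above. Oxa1l, which inserts the products of the mitochondrial ribosome into the inner membrane, had 17.6, 32.9 and 26.4 FPKM in siCon L2C, against 1.29, 2.61 and 2.25 FPKM in siCon E2C (log2 fold change 3.11, limma adjusted p = 4.48e-05). Set beside these lists at L2C, 40 of 75 nuclear genes of oxidative phosphorylation rose and 2 fell in siEchs1 (median 1.71). By contrast 4 of 85 cytosolic ribosomal proteins rose and 9 fell (median -0.07). Of all genes 21.9% rose and 26.9% fell in siEchs1 L2C. With the stage in siCon, 6 of the 75 rose and 23 fell (median -0.87), and 29 of the 85 rose and 3 fell (median 1.06). Of all genes 35.8% rose and 14.4% fell with the stage, so the share of cytosolic ribosomal proteins that rose was near that of all genes.

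In the treatment experiment the members summed to 1764 and 1360.3 FPKM in crotonate and 3264 and 2262 FPKM in acetate, against 2024 and 2256 FPKM in DMSO. Both crotonate libraries were below both DMSO libraries and both acetate libraries, and both acetate libraries were above both DMSO libraries, replicate 2 of acetate by only a few FPKM. Mrps34 reached 1 FPKM in only 1 library and was not tested, which left 77 members. Between crotonate and DMSO, limma called 0 members higher and 0 lower, where 0.529% of 13789 genes were called, and at an unadjusted p under 0.05 it had 2 higher and 19 lower, where 16.3% of all genes passed. The median was -0.42 over the members and -0.15 over all genes. Both crotonate libraries were below both DMSO libraries for 46 members and above them for 9, where 38.4% and 19.2% of all genes did so. Oocyte and zygote markers summed to 7117 to 8321 FPKM in crotonate and 8608 to 13670 FPKM in acetate, against 7783 to 8064 FPKM in DMSO. Over the 11 markers the median was -0.78 in crotonate over DMSO, with 0 called in either direction. Gdf9, an oocyte growth factor, had 158 and 132 FPKM in crotonate, against 228 and 271 FPKM in DMSO, and Zp3 had 6.52 and 7.94 FPKM in crotonate, against 11.6 and 18.7 FPKM in DMSO. Both crotonate libraries were the lower ones for both genes, and the part of these transcripts in the result was not tested. With the 4 crotonate and DMSO libraries alone in the fit, 1 member was higher and 9 were lower. That fit called 327 of 12942 genes higher and 882 lower, against 29 and 44 of 13789 in the main fit. Here and in the treatment comparisons below, shares of all genes in fits without 1 library are not given. Without either 1 of the acetate libraries, 0 members were higher and 9 lower.

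This comparison shares the DMSO libraries with the one above. Between acetate and DMSO, 0 members were called in either direction by limma, where 0.0653% of all genes were called, and 4 were higher and 0 lower at an unadjusted p under 0.05, where 5.96% of all genes passed. The median was 0.09 over the members and -0.08 over all genes, and it was -0.06 for the members with values rescaled without mitochondrial and ribosomal RNA. Without replicate 2 of acetate, 1 member was higher and 1 lower. The acetate replicates differed: mRNAs of the mitochondrial genome summed to 172430 and 76148 FPKM in acetate, against 85561 and 75922 FPKM in DMSO, and the members were at 3264 and 2262 FPKM.

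Crotonate and acetate are short-chain carboxylates that differ in that crotonate has a longer chain with a carbon-carbon double bond. They were compared at the same stage, but the sources used here give no doses, so whether the doses match is not known here. In limma 0 members were higher and 2 lower in crotonate than in acetate, where 1.02% of all genes were higher and 0.841% lower, and 1 was higher and 29 lower at an unadjusted p under 0.05, where 19.5% of all genes passed. Both crotonate libraries were below both acetate libraries for 48 members and above them for 6, where 27.6% and 17.9% of all genes did so. Mrps6, a relative of bacterial bS6, had 2.81 and 1.51 FPKM in crotonate and 11.9 and 15.3 FPKM in acetate, against 7.13 and 10.8 FPKM in DMSO (crotonate over acetate, log2 fold change -2.23 ± 0.39, SE, limma adjusted p = 0.0413). Mrpl16, next to the peptidyl transferase centre, had 12.6 and 8.59 FPKM in crotonate and 41.99 and 33.9 FPKM in acetate, against 35.01 and 37.2 FPKM in DMSO (crotonate over acetate, log2 fold change -1.76 ± 0.32, SE, limma adjusted p = 0.0444). In both genes the crotonate libraries lay below all 4 others. Their log2 fold changes over DMSO were -1.66 ± 0.39 (SE, limma adjusted p = 0.0994) for Mrps6 and -1.70 ± 0.32 (limma adjusted p = 0.0699) for Mrpl16. The calls against acetate ended without either 1 of the DMSO or crotonate libraries (limma adjusted p 0.0766 to 0.415 for Mrps6 and 0.0972 to 0.436 for Mrpl16). The count of lower members was 5 without replicate 1 of acetate and 17 without replicate 2.

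**Figure D5:**
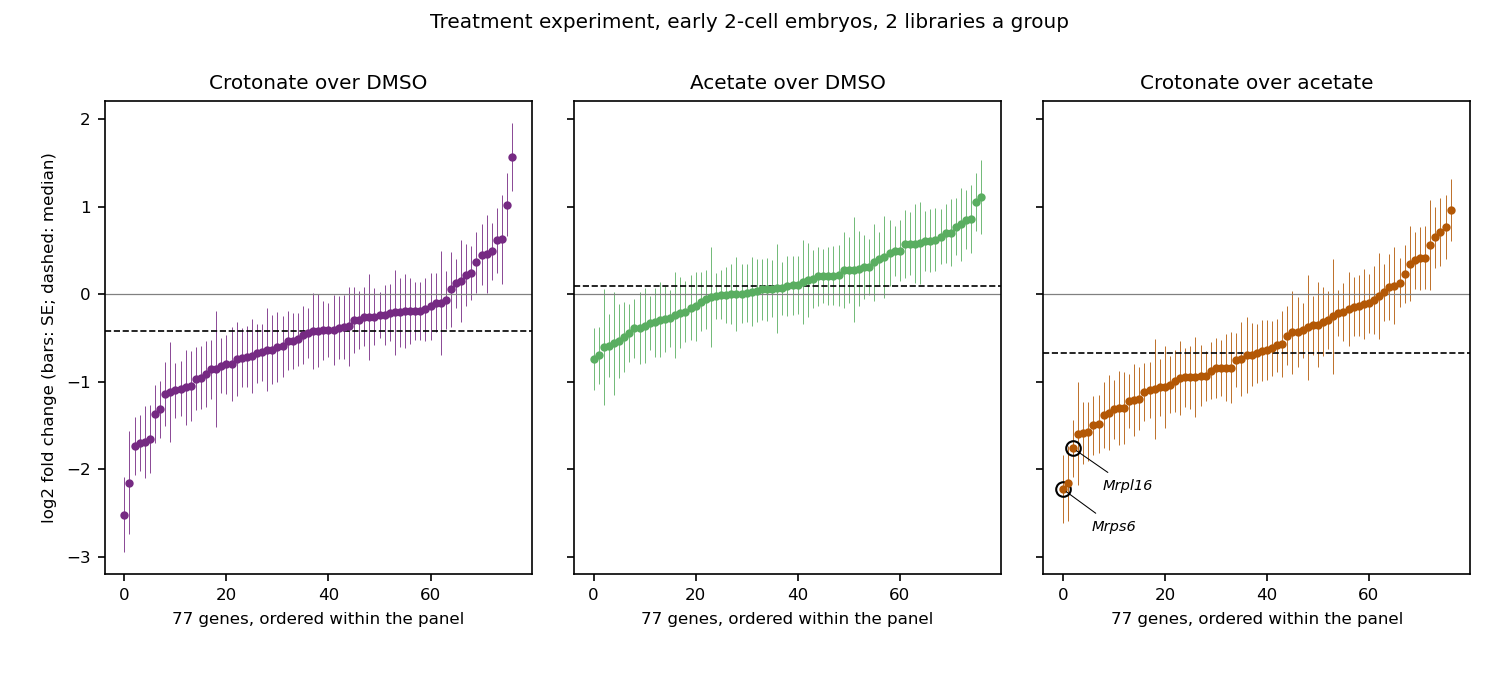
Log2 fold changes with standard errors of the 77 tested genes for crotonate over DMSO, acetate over DMSO and crotonate over acetate, ordered within each panel, with the median dashed. The medians are -0.42, 0.09 and -0.68, and the 2 genes ringed and named in the third panel, Mrps6 and Mrpl16, are those called.

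Mrpl33, which had the largest increase in siEchs1 L2C, had 0.7 and 0.02 FPKM in crotonate and 4.54 and 5.28 FPKM in acetate, against 4.77 and 8.92 FPKM in DMSO, and gave the lowest estimate over DMSO (log2 fold change -2.52 ± 0.43, SE, limma adjusted p = 0.055). Mrpl52, with the highest estimate, had 2.00 and 3.40 FPKM in crotonate and 0.92 and 1.56 FPKM in acetate, against 0 and 0.5 FPKM in DMSO (log2 fold change 1.57 ± 0.39, SE, limma adjusted p = 0.11). Neither passed the test. The stalk gave medians of -0.21 in crotonate over DMSO and 0.28 in acetate over DMSO, the exit tunnel -0.80 and 0.47, and the human disease genes -0.23 and 0.07, with 0 calls by limma in each list. The assembly factor Mterf4 fell to 7.65 and 4.56 FPKM in crotonate, against 32.96 and 46.8 FPKM in DMSO (log2 fold change -2.54, limma adjusted p = 0.0375), the only called gene among 41 tested assembly, translation and other mitoribosome genes. Mitochondrial genome mRNAs gave 0 calls in either direction (medians 0.48 in crotonate and 0.47 in acetate over DMSO).

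Over both experiments the family kept a wide range of levels per length. Mrps33, Mrpl48 and Mrps14 were the 3 highest members over the siRNA libraries, with means of 436, 244 and 230 FPKM, and Mrps14, Mrpl48 and Mrps33 were the 3 highest over the treatment libraries, with 244, 191 and 189 FPKM. Mrpl48 has a pseudogene of the same name, Mrpl48-ps, listed at 22.9 to 188 FPKM, and reads could be shared between them. Mrpl19, related to bacterial bL19, was the lowest member over the siRNA libraries at 1.33 FPKM, followed by Mrps34 at 7.54 and Mrps10 at 9.46 FPKM. In the treatment libraries Mrps34 (0.488 FPKM), Mrpl19 (0.63 FPKM) and Mrpl43 (1.01 FPKM) were the lowest. The 5 most abundant members took 22.4% of the family's FPKM in siEchs1 L2C and 24.2% in siCon L2C, against 26.0% in siEchs1 E2C and 42.1% in siCon E2C. Of the 78 members, 26 overlap another protein-coding gene on either strand, and the values keep no strand. Among them are Mrps6 with Slc5a3, Mrps25 with Nr2c2, Mrps18a with Rsph9 and Mrpl9 with Oaz3.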

How the data were processed

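RNA was measured by Smart-seq2, which reverse transcribes poly(A) RNA from an oligo-dT primer, in tubes of 5 to 10 embryos. The authors deposited 1 table of FPKM (fragments per kilobase of exon and library size) for each library. The submitters' processing notes name cutadapt 1.16, STAR and mm10; for the STAR version, the FPKM program and its annotation the entry is "not given in the sources used here". FPKM divides by the library total, so abundant mitochondrial RNA lowers all other values, and no counts, depth or strand can be had from it.

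Of 55335 rows, 237 with a repeated symbol or a symbol turned into a date were dropped. Genes with at least 1 FPKM in 3 of the 12 siRNA libraries (17652) or 2 of the 6 treatment libraries (13789) were tested on log2(FPKM + 1) with limma 3.58.1 (trend and robust variance, R 4.3.3), with 1 fit per experiment, two-sided, adjusted by Benjamini-Hochberg at 0.05 over all tested genes. Such fold changes understate those of low genes. The code was checked on simulated data. Tables used Python 3.11.15 with pandas 2.3.3 and numpy 2.4.6. Annotation is GENCODE vM21 (GRCm38), which held all 78 members.

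The members and lists were chosen with earlier results of these data known. Named members were, per comparison, called members whose groups do not overlap (up to 8 a direction by size), called members of the minority direction (up to 4), the 3 highest and 3 lowest by level, those under the filter and 16 role genes; exceptions are stated. From the other lists, up to 4 called genes a direction were named. Alternatives were quantile normalization, no filter, a pseudocount of 0.1, no variance trend, rescaling without mitochondrial and ribosomal RNA, a replicate block, the compared libraries alone and leaving out each library.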

Additional observations from a re-analysis of the deposited data

Results flagged for a closer look

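For 11 members the siRNA effect differed between the stages by a direct limma test (effect at L2C minus effect at E2C, log2). The difference was 3.71 for Mrps33, 3.22 for Mrps21, 2.98 for Mrpl1, 2.77 for Mrpl53, 2.68 for Mrps18a, 2.39 for Mrps27, 2.31 for Mrps5, 2.27 for Mrps14 and 1.68 for Mrps25, each with a more positive effect at L2C. It was -2.09 for Mrpl4 and -1.77 for Mrps30. Leaving out 1 library ended the call of Mrpl1 for any siCon or siEchs1 L2C library (limma adjusted p 0.0588 to 0.106) and that of Mrps5 for any of these but replicate 2 of siCon L2C (limma adjusted p 0.0535 to 0.0873). The call of Mrps18a ended without any siEchs1 L2C library, replicate 1 or 3 of siCon L2C, or replicate 2 or 3 of siCon E2C (limma adjusted p 0.0527 to 0.0684). That of Mrps27 ended without replicate 1 or 3 of siEchs1 L2C, 2 or 3 of siCon L2C, or 2 or 3 of siCon E2C (limma adjusted p 0.052 to 0.0725). Mrpl4 lost its call without replicate 2 or 3 of siEchs1 L2C, 3 of siCon L2C, 2 of siEchs1 E2C, or 2 or 3 of siCon E2C (limma adjusted p 0.0522 to 0.0721). The call of Mrps25 ended without any 1 siCon E2C library, replicate 2 of siEchs1 E2C, replicate 1 or 3 of siCon L2C, or any 1 siEchs1 L2C library, and also with no filter, a pseudocount of 0.1, rescaled values and either replicate block.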

How the results depend on the processing

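The counts at L2C (44 rises, 4 falls) stayed within 1.5 times under all 8 settings that kept every library. At E2C the rises numbered 9 with no filter, 30 rescaled and 5 with the compared libraries alone. Over all genes these settings gave 1138 rises of 38140, 2708 of 17740 and 814 of 13888. Member falls numbered 1 under quantile normalization, 1 with no filter, and 0 rescaled, under either replicate block and with the compared libraries alone. Over all genes, 1882 of 17652 fell under quantile normalization, 1283 of 38140 with no filter and 993 of 13888 with the compared libraries alone. Rescaled, 1198 of 17740 genes fell, and the 2 blocks gave 1471 and 1516 falls of 17652. Positive differences numbered 21 under quantile normalization and 4 with no filter, which left 1 negative. Over all genes, 1600 of 17652 and 589 of 38140 were positive in these settings, and 1280 were negative with no filter. The siCon stage change had 6 rises and 33 falls under quantile normalization, 8 rises with no filter and 31 falls with the compared libraries alone. Over all genes, no filter gave 6929 rises of 38140, and the compared libraries alone gave 3113 falls of 15610. The siEchs1 stage change had 1 fall under quantile normalization, and 1 rise with no filter and with the compared libraries alone. Over all genes these settings gave 785 falls of 17652, 1462 rises of 38140 and 741 rises of 14384. Crotonate against DMSO gave 1 higher and 9 lower members with the compared libraries alone, where 327 and 882 of 12942 genes were called. Crotonate against acetate gave 0 lower members with no filter, rescaled, under the block and alone, and 1 with a pseudocount of 0.1 or no variance trend. Over all genes, 1 of 32726 was lower with no filter, 49 of 13773 rescaled, 70 of 13789 under the block and 22 of 13015 alone. A pseudocount of 0.1 gave 78 lower genes of 13789, and no variance trend gave 56. The cause of these shifts was not tested.

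Leaving out each library gave 5 to 53 rises and 0 to 3 falls at E2C, 38 to 51 and 2 to 6 at L2C, 4 to 21 positive and 1 to 16 negative differences, 8 to 22 rises and 14 to 32 falls for the siCon stage, 1 to 3 and 0 to 7 for the siEchs1 stage, 0 higher and 0 to 9 lower for crotonate against DMSO, 0 to 1 each for acetate, and 0 higher and 0 to 17 lower for crotonate against acetate. Shares of all genes in these fits are not given here. The median difference ran from -0.0829 to 1.28, and the siEchs1 stage change of Mrps22 from -1.26 to 1.15. Both low ends, of reversed sign, are without replicate 3 of siEchs1 E2C.

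Deviations of same-numbered libraries correlated at -0.1 to 0.111 in the siRNA experiment with the numbers of the titles, and at -0.0946 to 0.224 with those of the file headers, where siEchs1 L2C and siCon L2C gave 0.111, 0.0875 and 0.224. In the treatment experiment the correlations were -0.0957 to 0.1595. Since not every pair was above 0.1, the libraries were not treated as paired. With a replicate block the counts were 16 rises and 0 falls at E2C, 43 and 4 at L2C, 7 positive and 2 negative differences, 15 and 18 for the siCon stage, and 2 and 0 for the siEchs1 stage. Of 17652 genes, 1698 rose and 1471 fell at E2C with that block, and 3729 and 4577 did at L2C. The difference was called positive for 826 genes and negative for 1629. The siCon stage had 6146 rises and 2439 falls, and the siEchs1 stage had 1826 and 387. At E2C the block ended the calls of Mrps14 (limma adjusted p = 0.0797, or 0.0757 with the header numbers) and Mrps23 (limma adjusted p = 0.0605, or 0.0563). Over the 70 named calls, 1172 of 1376 alternatives kept the call and 204 did not, and none reversed. Leaving out a library outside the comparison, or fitting no variance trend, cannot move the log2 fold change. The same holds for no filter, either replicate block and the compared libraries alone. Such settings could end a call but could not reverse it. With 2 or 3 libraries a group and no counts, precision rests on the spread between libraries alone.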
